A study of Homo sapiens with 12 samples.

Results

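Notch signaling passes between neighboring cells. A ligand of the Jagged or Delta family on one cell binds a Notch receptor on the next, the metalloprotease ADAM10 and then gamma-secretase cut the receptor, and the released intracellular domain enters the nucleus. There it joins the DNA-binding protein RBPJ and a Mastermind-like co-activator and switches on target genes, of which the HES and HEY repressors are the best known. In the pancreas the pathway holds progenitor cells back from differentiation during development, and it is active again in many pancreatic ductal adenocarcinomas.

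The 10 genes described here are 3 receptors (NOTCH1, NOTCH2 and NOTCH3), 3 ligands (JAG1, JAG2 and DLL1), the protease ADAM10, the co-activator MAML2 and the targets HES1 and HEY1. They were chosen by name as components of the pathway, with earlier results of these data known, and all 10 were found among the 58302 genes of the table. Their RNA was measured in a pair of human cell lines grown from pancreatic ductal adenocarcinomas, BxPC-3 and CFPAC-1, which are sensitive to gemcitabine (GEM), a nucleoside analog that blocks DNA synthesis. The GEM-resistant line of each, BxPC-3-GR or CFPAC-1-GR, was raised once from its parental line under rising GEM concentrations. The sample records name no engineered allele and no agent other than GEM for any of the 4 lines. Each line was sequenced as 3 libraries, 12 in all. The sources used here do not say whether these came from separate cultures, so that p-values measure only the spread between these libraries.

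Values are FPKM, fragment numbers divided by the length of the gene and the total mapped in its library, as the authors deposited them. The steps between low values implied a depth per library of 17.1 to 19.6 M fragments (M, 10 to the power of 6) for BxPC-3 and 21.6 to 25.2 M for BxPC-3-GR. The range was 12.6 to 19.4 M for CFPAC-1 and 15.5 to 21.8 M for CFPAC-1-GR. As a check of the resistant labels, RRM1, which encodes the large subunit of the ribonucleotide reductase that GEM inhibits, stood at 29.1 ± 1.31 FPKM (SD, n = 3) in BxPC-3 and 413 ± 14.9 in BxPC-3-GR, and at 8.07 ± 0.81 in CFPAC-1 and 306 ± 4.91 in CFPAC-1-GR. All 8 epithelial markers reached 1 FPKM in every library, with KRT19 the highest, and of 8 leukocyte and endothelial markers PTPRC was listed at 0 in all 12. The highest of that list was CD14, at 3.33 ± 0.11 FPKM in CFPAC-1 and 3.92 ± 1.08 in CFPAC-1-GR, the one marker of the list above 1 FPKM there, and none reached 1 FPKM in the BxPC-3 lines. The sample records give BxPC-3-GR a mesenchymal morphology and the other lines an epithelial one. Of the 4 mesenchymal markers tested between BxPC-3-GR and BxPC-3, 2 rose and 2 fell. The N-cadherin gene CDH2 was at 5.40 ± 0.83 against 1.99 ± 0.386 FPKM and the fibronectin gene FN1 at 9.09 ± 0.256 against 5.30 ± 0.195, while the transcription factor gene SNAI2 was at 23.0 ± 0.367 against 41.2 ± 1.93 and the intermediate filament gene VIM at 0.813 ± 0.111 against 6.59 ± 0.937.

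The CFPAC-1 libraries stood apart from the other 9 in a way that touches several of the genes below. Across all genes, the log2 fold change (log2FC) of CFPAC-1-GR over CFPAC-1 ran with the GC content of the transcript (Spearman's rho -0.777 across 12030 genes), and that of BxPC-3 over CFPAC-1 did likewise (rho -0.628). The rho was 0.0388 between the BxPC-3 lines and 0.0189 between both resistant lines. Genes are not independent replicates, and the 3 libraries of CFPAC-1 are shared by both of the comparisons with a trend. Whether the trend came from the cells or the libraries cannot be told apart in this design. Values after removal of the trend with GC content and length are therefore given beside the results they changed. In the order of GC content the genes are ADAM10 at 38.3%, MAML2 at 44.7%, HEY1 at 47.3%, NOTCH2 at 49.4%, JAG1 at 49.6%, HES1 at 49.9%, DLL1 at 58.4%, NOTCH1 at 62.9%, NOTCH3 at 63.1% and JAG2 at 64.0%.

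In GRCh38 coordinates, the receptors lie on chromosome 9 (NOTCH1, 136494433 to 136545786), chromosome 1 (NOTCH2, 119911553 to 120069626) and chromosome 19 (NOTCH3, 15159038 to 15200981), all on the minus strand. JAG1 (chromosome 20, 10637684 to 10673999), JAG2 (chromosome 14, 105140981 to 105168824) and DLL1 (chromosome 6, 170282206 to 170306565) are on the minus strand too. So are ADAM10 (chromosome 15, 58588807 to 58749978) and MAML2 (chromosome 11, 95976598 to 96343180), while HES1 (chromosome 3, 194136145 to 194138732) is on the plus strand. All 10 genes, with HEY1 placed below, are protein-coding. FPKM are given as 1 value per gene, so that single exons and untranslated regions were not told apart.

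The promoters printed here show the letters that RBPJ is known to bind, GTGGGAA on either strand, before a transcript start listed for each gene. They were searched in the 250 bases before the start in the RefSeq promoter table (GRCh38.p14), which had entries for 8 of the 10 genes (all but DLL1 and HEY1) and for 57 of 68 genes in a wider set of Notch pathway genes. Of 35116 promoters in the table, 5.43% held GTGGGAA or its complement TTCCCAC. The shorter TGGGAA, contained in it, was in 20.8%. HES1 was the only one of the 8 with the longer motif. Of 8 HES, HEY and related target genes with an entry, 5 held it, namely HES1, HES4, HES5, HEYL and HEY2. RBPJ and the corepressor gene CTBP2 were the only others among the 57. The shares of the table count promoters while these numbers count genes, so that they cannot be compared directly. The motif is in capitals and each window reads 5′ to 3′ on the strand of its gene. It starts 85 bases before the listed start for HES1, 77 for HES4, 178 for HEYL and 73 for RBPJ. RBPJ holds a further copy, as TTCCCAC, 115 bases before its listed start and outside the window printed.
HES1 (chr3:194136037-194136095, plus strand): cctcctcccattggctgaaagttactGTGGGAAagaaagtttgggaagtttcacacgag
HES4 (chr1:1000142-1000200, minus strand): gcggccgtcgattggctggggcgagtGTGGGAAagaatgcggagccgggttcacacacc
HEYL (chr1:39639789-39639847, minus strand): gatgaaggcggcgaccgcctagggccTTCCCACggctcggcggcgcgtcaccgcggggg
RBPJ (chr4:26319647-26319705, plus strand): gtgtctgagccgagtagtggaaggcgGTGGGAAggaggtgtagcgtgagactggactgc
These matches describe the letters and do not show that a protein was bound. Within the windows printed, the motif reads GTGGGAA in HES1, HES4 and RBPJ and TTCCCAC in HEYL.

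Per length, JAG1 was the most abundant of the 10 genes in both BxPC-3 lines, at 43.1 ± 0.81 FPKM in BxPC-3 and 38.7 ± 0.305 in BxPC-3-GR. In CFPAC-1 the most abundant was HES1, at 19.9 ± 0.72 FPKM, and in CFPAC-1-GR it was NOTCH2, at 15.6 ± 1.39, next to HES1 at 13.1 ± 1.15. HEY1 and DLL1 were below 1 FPKM in every library, and NOTCH3 was below 1 FPKM in the BxPC-3 lines only. NOTCH4, the remaining receptor of the family, was listed at 0 in all 12 libraries. These are levels in bulk RNA, in which fewer cells expressing a gene and less RNA per cell cannot be told apart.

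**Figure D1:**
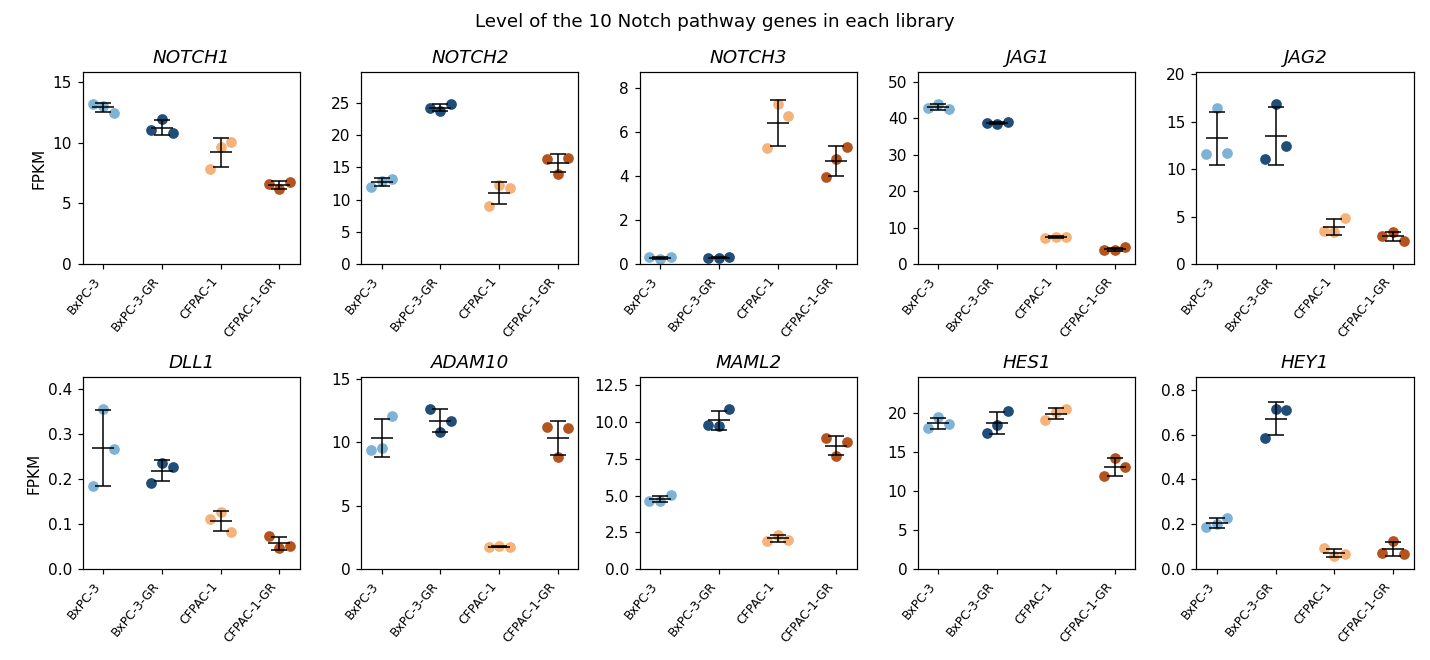
Level in FPKM (y axis, starting at 0, scaled for each gene) of the 10 genes in the 3 libraries of each line (points), with the mean and SD in black. The 3 CFPAC-1 libraries of ADAM10 lie between 1.72 and 1.84 FPKM, below all 9 others, and HES1 is lowest in the 3 CFPAC-1-GR libraries, between 11.9 and 14.2.

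The comparison of each resistant line with its parental line asked which of the genes differed with acquired GEM resistance. Log2FC were tested with limma on log2(FPKM + 1), a scale that understates changes of low genes. Genes whose mean over the libraries compared was under 1 FPKM were left out. Genes are said below to have risen or fallen at a Benjamini-Hochberg adjusted p under 0.05, and were significantly differentially expressed (SDE) if the absolute log2FC was also above 1. An exact permutation test of 3 libraries against 3 gives no two-sided p below 0.10, so that these p-values rest on the variance pooled over genes. In the BxPC-3 lines 7 of the 10 genes could be tested and none was SDE, against 4.14% of 11710 genes that were SDE upwards and 3.62% downwards. Of these 7, 4 had an unadjusted p under 0.05, and the same 4 passed after adjustment. MAML2 and NOTCH2 rose (26.2% of all genes rose) and JAG1 and NOTCH1 fell (31.5% fell). In the CFPAC-1 lines 2 of 8 were SDE upwards, ADAM10 and MAML2, against 20.5% of 12051 genes, and none downwards, against 11.7%. NOTCH2 rose as well (44.6% of all genes rose), and JAG1, HES1, NOTCH1 and NOTCH3 fell (34.9% fell). The 2 of 8 are near the share of all genes that were SDE upwards in this pair.

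The scaling of the libraries also moved the CFPAC-1 comparison. The median log2FC of all genes there was 0.127 as deposited, and it shifted by -0.126 under median-of-ratios scaling and by -0.334 under upper-quartile scaling, so that each value for this pair is to be read against it. Of the SDE genes, 63.7% were higher in CFPAC-1-GR as deposited, 52.7% under median-of-ratios scaling, 36.0% under upper-quartile scaling and 75% after the correction for GC content. The median of the 8 genes was -0.36 on the log2 scale as deposited and 0.35 after that correction, where the median of all genes was 0.14. In the BxPC-3 lines the median of the 7 genes was 0.02 and that of all genes -0.05.

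NOTCH1 and NOTCH2, receptors of like domain structure, changed in opposite directions in both pairs as deposited. In the CFPAC-1 pair this was lost after the correction for GC content, with which both were higher in CFPAC-1-GR (NOTCH1 by 0.31 and NOTCH2 by 0.18). NOTCH2 was at 12.01, 12.8 and 13.2 FPKM in BxPC-3 and at 24.2, 23.8 and 24.9 in BxPC-3-GR. All 3 resistant libraries were above all 3 parental ones, by a ratio of means of 1.91 (log2FC 0.89 ± 0.0549 SE, adjusted p = 6e-05, limma). In CFPAC-1 it was at 8.98, 12.2 and 11.8 FPKM and in CFPAC-1-GR at 16.3, 14.02 and 16.5, again without overlap (log2FC 0.48 ± 0.128, adjusted p = 0.011, limma). For CFPAC-1-GR the difference was 0.18 after the GC correction (adjusted p = 0.15) and 0.07 under upper-quartile scaling (adjusted p = 0.59). For BxPC-3-GR the corrected value was 0.73 (adjusted p = 6.6e-05). NOTCH2 shares sequence with NOTCH2NL, which was counted as its own gene at 0.839 ± 0.051 FPKM in BxPC-3, 1.92 ± 0.032 in BxPC-3-GR, 0.903 ± 0.113 in CFPAC-1 and 1.03 ± 0.104 in CFPAC-1-GR. How shared fragments were divided is not given in the sources used here, and NOTCH2 values are uncertain by that share.

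NOTCH1 was at 13.2, 13.1 and 12.5 FPKM in BxPC-3 and at 11.1, 11.97 and 10.8 in BxPC-3-GR. The resistant libraries were all lower, by a small margin (log2FC -0.18 ± 0.0573, adjusted p = 0.033, limma). This call was lost when any 1 of 4 libraries was left out (BxPC-3 replicates 1 and 2, BxPC-3-GR replicates 1 and 3, adjusted p between 0.088 and 0.096) and under median-of-ratios scaling (-0.14, adjusted p = 0.08). In CFPAC-1 it was at 7.86, 9.69 and 10.1 FPKM and in CFPAC-1-GR at 6.57, 6.17 and 6.81, also without overlap (log2FC -0.44 ± 0.101, adjusted p = 0.0057, limma). After the GC correction NOTCH1 was 0.31 higher in CFPAC-1-GR (adjusted p = 0.015). In the BxPC-3 lines the corrected value kept its direction, at -0.32 (adjusted p = 0.0017).

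NOTCH3, the receptor best known from vascular smooth muscle, separated the lines by origin. It was at 0.321, 0.227 and 0.310 FPKM in BxPC-3, at 0.289, 0.254 and 0.308 in BxPC-3-GR, at 5.27, 7.29 and 6.75 in CFPAC-1 and at 3.95, 4.77 and 5.32 in CFPAC-1-GR. The BxPC-3 lines overlapped with each other at a level too low to be tested. The CFPAC-1 lines overlapped in 1 library each, with a log2FC of -0.39 ± 0.136 (adjusted p = 0.034, limma) that turned to 0.39 (adjusted p = 0.022) after the GC correction. As deposited, it no longer passed without CFPAC-1 replicate 2 or 3 or without CFPAC-1-GR replicate 1 or 2 (adjusted p between 0.066 and 0.1).

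Of the ligands, JAG1 was lower in both resistant lines. It was at 42.8, 44.0 and 42.5 FPKM in BxPC-3 and at 38.6, 38.4 and 39.0 in BxPC-3-GR, a small difference without overlap (log2FC -0.15 ± 0.0448, adjusted p = 0.027, limma). It no longer passed when any library but BxPC-3 replicate 3 was left out (adjusted p between 0.05 and 0.088), nor under median-of-ratios scaling (-0.10, adjusted p = 0.095) or in 1 fit of all 12 libraries (adjusted p = 0.052). In CFPAC-1 it was at 7.22, 7.47 and 7.49 FPKM and in CFPAC-1-GR at 3.72, 3.96 and 4.55. Every resistant library was lower by a wide gap, the mean of CFPAC-1 being 1.81 times that of CFPAC-1-GR (log2FC -0.73 ± 0.0793, adjusted p = 0.00013, limma). The value after the GC correction was -0.87 (adjusted p = 0.00013), and with upper-quartile scaling, at -1.09, JAG1 was SDE.

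JAG2, the second Jagged ligand, was at 11.6, 16.5 and 11.7 FPKM in BxPC-3 and at 11.03, 16.9 and 12.4 in BxPC-3-GR. In both lines replicate 2 was well above the other 2 libraries, and the groups overlapped (log2FC 0.02, 95% interval -0.45 to 0.48). In CFPAC-1 it was at 3.49, 3.38 and 4.88 FPKM and in CFPAC-1-GR at 2.94, 3.37 and 2.39. The groups were separated only barely, and the difference of -0.33 did not pass (adjusted p = 0.074, limma). It passed under median-of-ratios scaling, at -0.45 (adjusted p = 0.021), and in the opposite direction after the GC correction, at 0.58 (adjusted p = 0.015). DLL1, the Delta ligand of the set, was near the limit of detection, at 0.2697 ± 0.0853 FPKM in BxPC-3, 0.219 ± 0.0234 in BxPC-3-GR, 0.107 ± 0.0222 in CFPAC-1 and 0.0576 ± 0.0143 in CFPAC-1-GR. At the implied depth and the length of the joined exons, these values stand for about 10.4 to 22.5 fragments per library in the BxPC-3 lines and 2.6 to 6.93 in the CFPAC-1 lines, and DLL1 was below the minimum for the test. DLL1 overlaps FAM120B on the opposite strand, a gene with a mean of 2.58 FPKM. The sources used here do not state a strand setting, which leaves the values of DLL1 uncertain.

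ADAM10, which makes the first cut in a ligand-bound receptor, had the largest log2FC of the 8 tested genes against the parental line as deposited. It was at 1.72, 1.84 and 1.77 FPKM in CFPAC-1 and at 11.2, 8.82 and 11.1 in CFPAC-1-GR, a ratio of means of 5.84 (log2FC 2.03 ± 0.0986, adjusted p = 6.6e-06, limma). CFPAC-1 was the line that stood apart, since BxPC-3 was at 9.42, 9.54 and 12.1 FPKM and BxPC-3-GR at 12.6, 10.8 and 11.7. The BxPC-3 lines overlapped (log2FC 0.17, 95% interval -0.09 to 0.43, adjusted p = 0.22), and without BxPC-3 replicate 3, the highest of its line, the difference was 0.27 (adjusted p = 0.031). ADAM10 is also the poorest in GC of the 10 genes. After the correction it was 0.69 higher in CFPAC-1-GR (adjusted p = 0.00017) and no longer SDE, and over all alternatives the value ranged from 0.54 to 2.47.

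MAML2, a Mastermind-like co-activator of the Notch complex, was higher in both resistant lines in every library. It was at 4.62, 4.64 and 5.03 FPKM in BxPC-3 and at 9.78, 9.69 and 10.9 in BxPC-3-GR, a ratio of means of 2.12. The log2FC of 0.95 ± 0.0636 (adjusted p = 7.8e-05, limma) fell just short of the SDE threshold of 1, which it passed with a pseudocount of 0.1 (1.07). In CFPAC-1 it was at 1.93, 2.32 and 1.9997 FPKM and in CFPAC-1-GR at 8.87, 7.67 and 8.61, a ratio of 4.03 (log2FC 1.61 ± 0.0841, adjusted p = 7.4e-06, limma). It remained SDE after the GC correction, at 1.02 (adjusted p = 8e-05), and in the BxPC-3 lines the corrected value was 0.91 (adjusted p = 5.8e-05). With median-of-ratios scaling and the correction together, the CFPAC-1 value was 0.89, below the threshold.

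**Figure D2:**
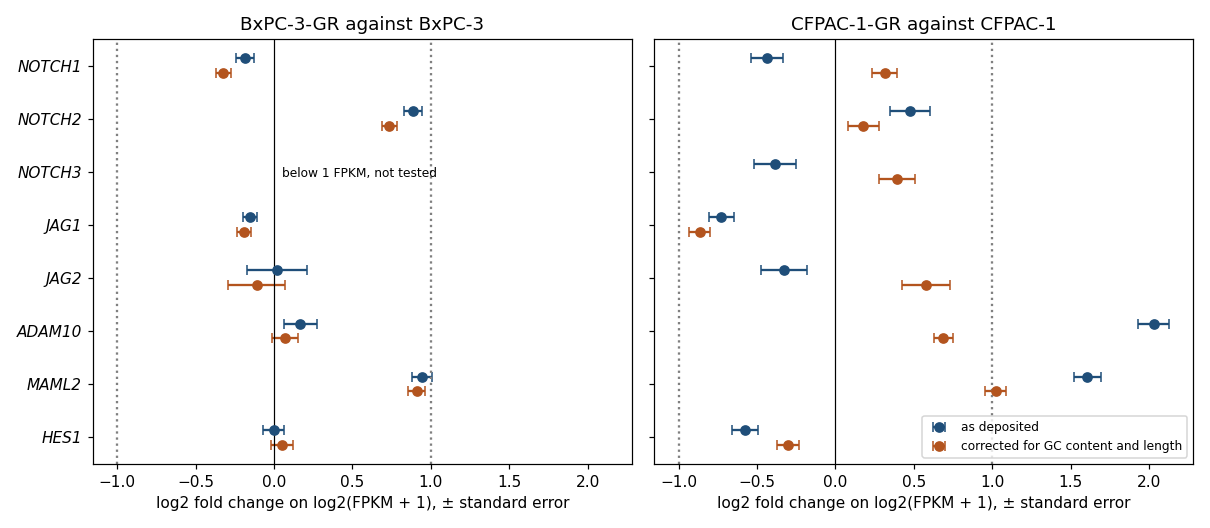
Log2FC on log2(FPKM + 1) (x axis) of the 8 genes above 1 FPKM in the resistant against the parental line, as deposited (blue) and after correction for GC content and length (orange), with standard errors and dotted lines at -1 and 1. Both values of MAML2, NOTCH2 and JAG1 lie on the same side of 0 in both pairs, while NOTCH1, NOTCH3 and JAG2 change side in the CFPAC-1 pair, and ADAM10 moves from 2.03 to 0.69.

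Among the targets, HES1, a repressor switched on directly by Notch, was at 18.1, 19.5 and 18.6 FPKM in BxPC-3, at 17.4, 18.5 and 20.3 in BxPC-3-GR and at 19.1, 20.1 and 20.5 in CFPAC-1. These 9 libraries overlapped, and between the BxPC-3 lines the 95% interval of the log2FC ran from -0.17 to 0.17. In CFPAC-1-GR it was at 11.9, 14.2 and 13.1 FPKM, below every other library. The fall from CFPAC-1 was -0.57 ± 0.0812 (adjusted p = 0.00049, limma), and -0.30 (adjusted p = 0.0093) after the GC correction.

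HEY1 (chromosome 8, 79764010 to 79767863, minus strand), a repressor related to HES1, was low but distinct in BxPC-3-GR. It was at 0.587, 0.714 and 0.712 FPKM there, against 0.186, 0.203 and 0.227 in BxPC-3, a ratio of means of 3.26. At the implied depth and the length of the joined exons, these stand for about 47.7 to 57.2 fragments per library against 10.5 to 12.9. In CFPAC-1 HEY1 was at 0.0943, 0.0598 and 0.0672 FPKM and in CFPAC-1-GR at 0.0741, 0.126 and 0.0693, or about 2.44 to 6.96 fragments, and those lines overlapped. HEY1 did not reach the minimum of 1 FPKM. With the minimum removed, its log2FC in BxPC-3-GR was 0.47 (adjusted p = 0.00079, limma), and with a pseudocount of 0.1 as well, a setting chosen after the values were seen, it was 1.33 (adjusted p = 0.00089).

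Across the 8 genes tested in CFPAC-1-GR, libraries did not overlap for 7, all but NOTCH3, where 82.1% of all genes had no overlap. In BxPC-3-GR this held for 4 of 7 (66.1% of all genes). The plot of log2FC by GC content shows where each gene sat relative to genes of like composition.

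**Figure D3:**
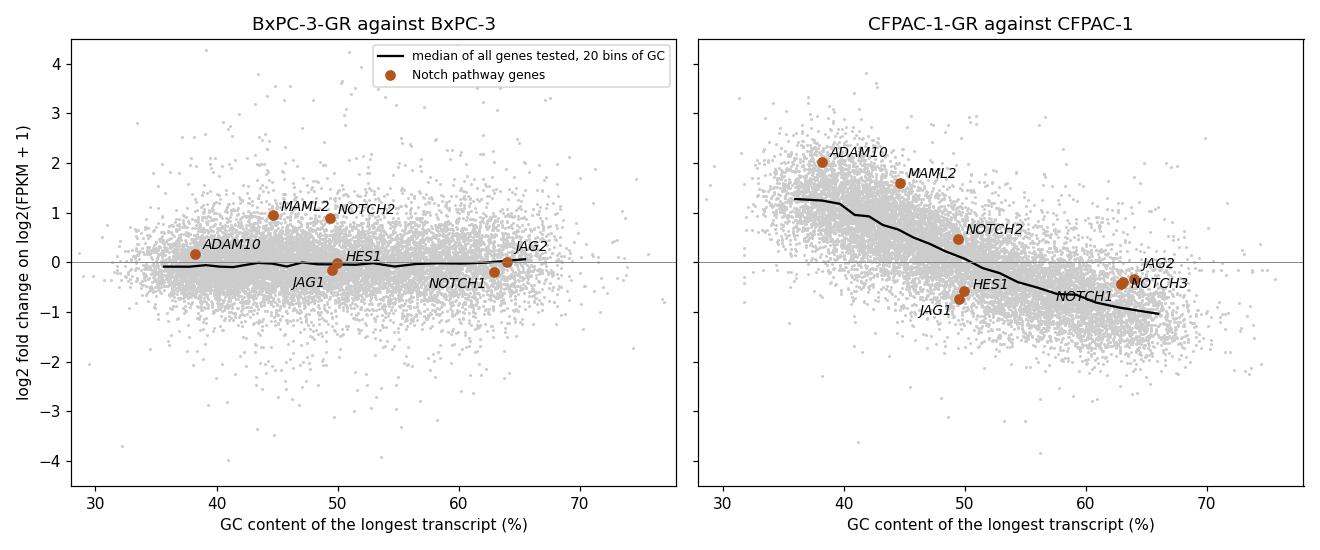
Log2FC on log2(FPKM + 1) (y axis) against the GC content of the longest transcript in percent (x axis) for all tested genes (grey), their median in 20 bins of GC (line) and the Notch pathway genes (orange). In the CFPAC-1 pair the median falls from above 1 to about -1 as GC rises, ADAM10 and MAML2 lie above it, JAG1 and HES1 below it, and in the BxPC-3 pair the line is flat.

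The difference between the responses of the lines was tested as an interaction, with the response of BxPC-3 subtracted from that of CFPAC-1. Of the 8 genes tested, 6 passed an adjusted p under 0.05 (76.6% of 12210 genes did), and 1 was SDE, ADAM10, upwards (23.6% of genes, and 14.4% downwards). The SDE genes of this test were upwards in 62.1% as deposited, 46.9% under median-of-ratios scaling and 39.4% under upper-quartile scaling. ADAM10 differed by 1.86 ± 0.151 and MAML2 by 0.66 (adjusted p = 0.00014, limma), both toward a larger increase in the CFPAC-1 pair. JAG1 differed by -0.58 (adjusted p = 9.3e-05), HES1 by -0.57 (adjusted p = 0.00046), NOTCH2 by -0.41 (adjusted p = 0.024) and NOTCH3 by -0.38 (adjusted p = 0.041), all by limma. NOTCH3 was below 1 FPKM in the BxPC-3 lines and entered this test only through the CFPAC-1 lines, so that its value restates their difference. It no longer passed in 10 of the 12 fits that left out 1 library (adjusted p between 0.054 and 0.097; it still passed without CFPAC-1 replicate 1 and without CFPAC-1-GR replicate 3). NOTCH2 was lost in 4 of the 12 (BxPC-3 replicate 1, CFPAC-1 replicates 2 and 3, CFPAC-1-GR replicate 2, adjusted p between 0.054 and 0.059). NOTCH1 (-0.25, adjusted p = 0.07) and JAG2 (-0.35, adjusted p = 0.24) did not pass, though NOTCH1 did without CFPAC-1 replicate 1 (adjusted p = 0.0041). Under median-of-ratios scaling both passed (NOTCH1 -0.53, adjusted p = 0.00093, JAG2 -0.60, adjusted p = 0.048), as they did under upper-quartile scaling (-0.68, adjusted p = 0.00021, and -0.71, adjusted p = 0.027). After the GC correction both passed in the opposite direction (0.68, adjusted p = 0.00011, and 0.73, adjusted p = 0.028). After the GC correction, JAG1 (-0.65), HES1 (-0.33), NOTCH2 (-0.53) and ADAM10 (0.69) kept their direction with adjusted p between 2.6e-05 and 0.011. MAML2 was then at 0.14 (adjusted p = 0.16), and NOTCH3 turned to 0.57.

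Between the parental lines, JAG1, JAG2 and ADAM10 were SDE and higher in BxPC-3 (24.7% of 11842 genes) and NOTCH3 was SDE and higher in CFPAC-1 (19.8%). The SDE genes of this comparison were higher in BxPC-3 in 55.4% as deposited and in 43.6% under upper-quartile scaling. JAG1 was 5.83 times as high in BxPC-3 as in CFPAC-1 (log2FC 2.39, adjusted p = 1.3e-07, limma), and JAG2 3.38 times (log2FC 1.53, adjusted p = 0.00015). NOTCH3 was 22.5 times as high in CFPAC-1 as in BxPC-3 in the ratio of means, which the scale of the test gave as a log2FC of -2.52 (adjusted p = 1.6e-06). It passed the minimum of 1 FPKM only through the CFPAC-1 lines, here and between the resistant lines, so that its calls follow from that choice. ADAM10 was 5.82 times as high in BxPC-3 (log2FC 2.02, adjusted p = 2.3e-06), and 0.61 on the log2 scale after the GC correction, while NOTCH1 went from 0.45 to 1.19 with it. With the correction ADAM10 was thus no longer SDE, and NOTCH1 became SDE. MAML2 was higher in BxPC-3 by 0.90 (adjusted p = 2.1e-05), by 0.27 after the GC correction (adjusted p = 0.0051) and, as an SDE gene, by 1.16 with a pseudocount of 0.1, and HES1 (-0.08, 95% interval -0.22 to 0.05) and NOTCH2 (0.20, adjusted p = 0.15) did not pass. HES1 passed under median-of-ratios scaling (-0.21, adjusted p = 0.0085) and, in the other direction, after the GC correction (0.29, adjusted p = 0.0046).

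The resistant lines share no library with the parental comparison, and their contrast had no trend with GC content. JAG1 and JAG2 were SDE and higher in BxPC-3-GR (6.8% of 12330 genes) and NOTCH3 was SDE and higher in CFPAC-1-GR (10.3%). JAG1 was 9.49 times as high in BxPC-3-GR as in CFPAC-1-GR (log2FC 2.97, adjusted p = 4.4e-07, limma), and JAG2 4.64 times (log2FC 1.88, adjusted p = 8.9e-05). NOTCH3 was 16.5 times as high in CFPAC-1-GR (log2FC -2.14, adjusted p = 4.2e-06). NOTCH1 (0.71), NOTCH2 (0.61), HES1 (0.49) and MAML2 (0.24) were higher in BxPC-3-GR with adjusted p between 0.00014 and 0.031, and ADAM10 (0.16, 95% interval -0.09 to 0.42) did not pass. The call of MAML2 was lost when any library but CFPAC-1-GR replicate 1 was left out (adjusted p between 0.052 and 0.092).

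Ordered by mean level as deposited, NOTCH1 ran from BxPC-3 through BxPC-3-GR and CFPAC-1 to CFPAC-1-GR with no overlap between neighbors, and JAG1 followed the same order, also without overlap. After the GC correction NOTCH1 was 0.31 higher in CFPAC-1-GR than in CFPAC-1, against this order. For NOTCH2 the order was BxPC-3-GR, CFPAC-1-GR, BxPC-3 and CFPAC-1, where the libraries of both parental lines overlapped. For MAML2 it was the same order with no overlap. For ADAM10 the 3 highest lines overlapped, and for HES1 likewise all lines but CFPAC-1-GR.

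The wider set held 68 pathway genes grouped by role, the 10 genes above included. In BxPC-3-GR 47 were tested, 17 rose and 14 fell (26.2% and 31.5% of all genes), and 3 were SDE, all upwards (4.14% of all genes were SDE upwards and 3.62% downwards). LFNG, a glycosyltransferase that modifies Notch receptors and sets which ligands they answer to, rose from 7.22 to 19.1 FPKM (log2FC 1.29 ± 0.0596, adjusted p = 2.1e-05, limma). DTX4, a Deltex ubiquitin ligase, rose from 9.61 to 24.9 FPKM (log2FC 1.29), and TLE4, a Groucho-type corepressor that works with HES proteins, from 0.288 to 1.87 FPKM (log2FC 1.155). TLE4 passed the minimum of 1 FPKM only through BxPC-3-GR, so that its call follows from that choice. The same 3 genes were SDE under both other scalings and after the GC correction. The tested target genes in this pair were HES1 and HES4, and neither passed.

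In CFPAC-1-GR 50 of the 68 were tested, 20 rose and 21 fell (44.6% and 34.9% of all genes), and 15 were SDE. The 11 upwards and 4 downwards stand beside 20.5% and 11.7% of all genes, near those shares. Those upwards were MIB1, a ubiquitin ligase that activates ligands (log2FC 2.33), ADAM10, the turnover ligase ITCH (1.72), RBPJ (1.62), MAML2, the corepressors SPEN (1.53), CIR1 (1.37) and HDAC2 (1.07), the Deltex ligase DTX3L (1.48), the O-glucosyltransferase POGLUT1 (1.33) and the protease ADAM17 (1.30). Those downwards were the target HES4 (-1.53), the feedback inhibitor NRARP (-1.14), DTX2 (-1.03) and the glycosyltransferase RFNG (-1.01). Under median-of-ratios scaling the split was 10 upwards and 7 downwards, and under upper-quartile scaling 9 and 11. After the GC correction it was 4 upwards (MAML2, MIB1, SPEN and the target HEYL) and none downwards, and with median-of-ratios scaling and the correction together only SPEN upwards and JAG1 downwards. SPEN was thus the gene SDE under each of these settings. MIB1, RBPJ and POGLUT1 had means under 1 FPKM in CFPAC-1 and passed the minimum only through CFPAC-1-GR.

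RBPJ, at the center of the complex and with the motif in its own promoter window, was at 0.969 ± 0.208 FPKM in CFPAC-1 and 5.05 ± 0.541 in CFPAC-1-GR, and at 2.73 ± 0.246 and 3.18 ± 0.202 in BxPC-3 and BxPC-3-GR. HES4, with a window like that of HES1, was at 6.35 ± 0.693 FPKM in CFPAC-1 and 1.56 ± 0.392 in CFPAC-1-GR, and at 4.38 ± 0.426 and 4.08 ± 0.992 in the BxPC-3 lines. HES1 and HES4 were each lowest in CFPAC-1-GR, and HES4 was not SDE after the GC correction. HEYL, the other target with a window shown, was at 1.40 ± 0.142 and 1.73 ± 0.329 FPKM in CFPAC-1 and CFPAC-1-GR, which overlapped, and did not exceed 0.119 FPKM in any BxPC-3 library. HES5 was listed at 0 in all lines but BxPC-3.

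**Figure D4:**
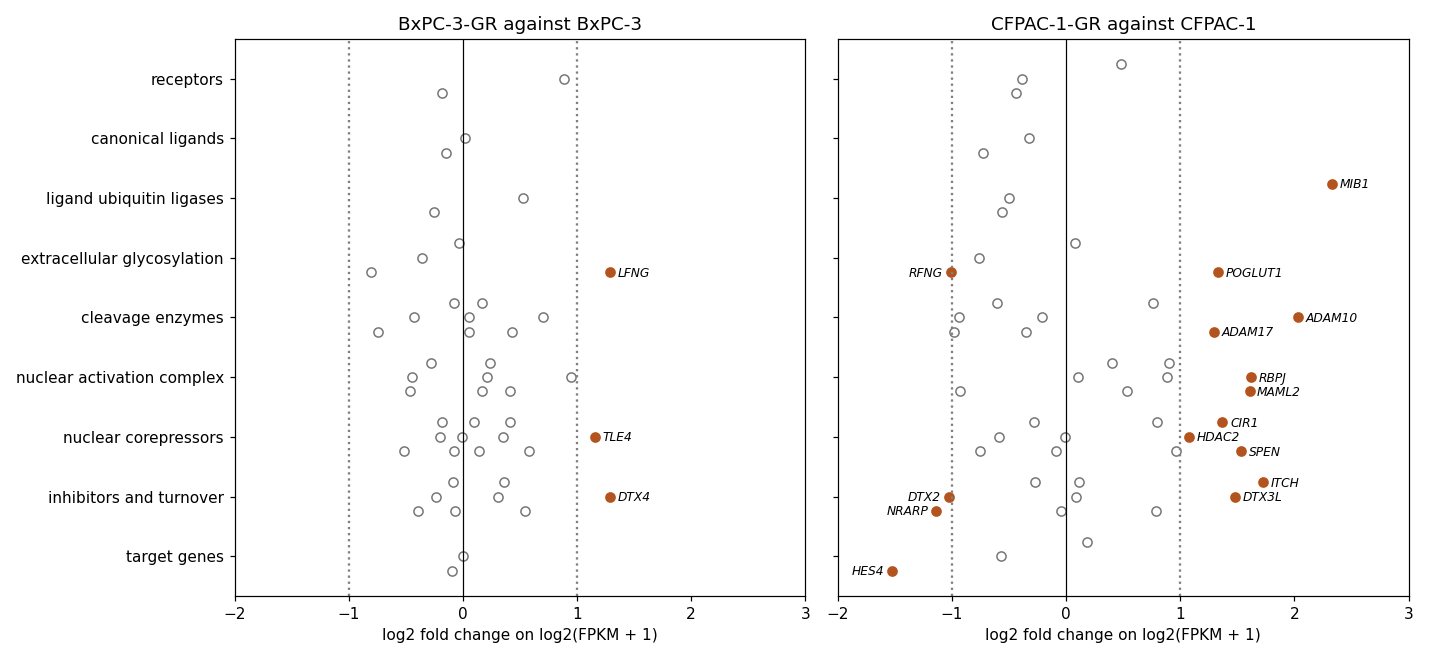
Log2FC on log2(FPKM + 1) (x axis) of the tested genes of the 9 Notch role lists (rows) in each resistant line against its parental line, with SDE genes filled and named and dotted lines at -1 and 1. LFNG, DTX4 and TLE4 are filled in the BxPC-3 pair, and 11 genes upwards and 4 downwards in the CFPAC-1 pair.

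The most abundant gene of each role, by the mean over the 12 libraries, was NOTCH2 among receptors (15.9 FPKM), JAG1 among ligands (23.3), MIB1 among ligand ubiquitin ligases (6.48) and the fucosyltransferase POFUT1 in extracellular glycosylation (26.6). It was the gamma-secretase subunit NCSTN among cleavage enzymes (23.8), SNW1 in the activation complex (18.1), HDAC1 among corepressors (52.5), DTX3L among inhibitors and turnover (22.2) and HES1 among targets (17.6). These ranks pool lines in which the order differed, for example in BxPC-3, where NOTCH1 (12.9 FPKM) was above NOTCH2 (12.7), and in CFPAC-1, where MIB1 was at 0.591 FPKM and MIB2 at 2.18. POFUT1, which adds the O-fucose that LFNG extends, fell in BxPC-3-GR from 35.1 to 19.6 FPKM (log2FC -0.81, adjusted p = 0.0002, limma), opposite to LFNG.

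Patterns most like those of JAG1 and HES1 were sought among 12210 genes by the root mean square difference of centered means on log2(FPKM + 1) over the 4 lines. For HES1, whose line means spanned 0.575 on that scale, the nearest were PTGES (0.0233), TCF3 (0.024) and the pseudogene ANP32BP1 (0.0251). For JAG1, which spanned 3.12, they were FAM71E1 (0.198), GPR153 (0.209) and GJB5 (0.247). Only 4 points lie behind each likeness.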

How the data were processed

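RNA of 4 cell lines was sequenced, with 3 replicates of each, and libraries were grouped by the name of the line in their labels. The authors deposited FPKM values for 58302 genes, scaled by gene length and mapped fragments. The methods name GRCh38 with Ensembl release 91. The submitters' processing notes list Trimmomatic 0.27, FastQC 0.10.1, TopHat2 2.0.8 and the builds hg19 and GRCh38 without their roles, and the counting program is not given in the sources used here. Columns of every library were used. In low values (under 5.5 implied fragments), 62.0% to 72.7% per library were whole multiples of 1 fragment within 0.05, from which depth was inferred, so low genes are the least precise. The 10 most abundant genes held 12.0% to 13.8% of summed FPKM in CFPAC-1, against 23.2% to 24.6% in CFPAC-1-GR and 33.4% to 36.3% in both BxPC-3 lines. The methods and the records disagree on the medium of CFPAC-1.

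Limma 3.58.1 in R 4.3.3 was run on log2(FPKM + 1) over all genes whose mean FPKM in the fitted libraries reached 1, comparing each resistant line with its parent, the parental lines, the resistant lines, and the responses (an interaction over 12 libraries). A gene was SDE if its log2FC was beyond 1 in either direction and its p, adjusted after Benjamini and Hochberg, was below 0.05. The procedure was tested on simulated data. GC content (longest transcript) and positions came from GENCODE 29, which matched 58039 rows. The start and end of 8 of the 10 genes were as in the deposited table, and those printed are GENCODE's. Alternatives were a pseudocount of 0.1, no filter, median-of-ratios and upper-quartile scaling, and removal of the trend with GC content and length (splines with 5 degrees of freedom). Further ones were the replicate number as a block (alone or with that removal), 1 fit of all 12 libraries, protein-coding genes only, and each library left out. The pseudocount of 0.1 without a filter, and median-of-ratios scaling with the GC correction, were added after the values were seen.

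The 10 genes and the role and marker lists were chosen with earlier results of these data known. The other genes named are those SDE within the Notch lists in either line, the most abundant of each list, copies of NOTCH2, RRM1, the highest and lowest markers and the 3 nearest patterns to HES1 and JAG1. CDH2, FN1, SNAI2, VIM, MIB2 and the carriers of the promoter motif were added after their values were seen. Replicate numbers did not pair the libraries (correlations of same-numbered deviations -0.134 to 0.0895).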

Additional observations from a re-analysis of the deposited data

Results flagged for a closer look

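The interaction of resistance and line of origin differed from 0 for 6 of the 8 genes tested, at an adjusted p under 0.05 by limma, and this is what marked them for a closer look. The increase of ADAM10 was larger in the CFPAC-1 pair by 1.86 on the log2 scale, and that of MAML2 by 0.66. The change of JAG1 was lower in the CFPAC-1 pair by a difference of -0.576, that of HES1 by -0.572, that of NOTCH2 by -0.41 and that of NOTCH3 by -0.384, the last through the CFPAC-1 lines alone, since NOTCH3 was below 1 FPKM in the BxPC-3 lines. Of all genes tested, 76.6% passed the same threshold. The CFPAC-1 libraries enter each of these values, and the trend of the interaction with GC content had a Spearman's rho of -0.696 across genes. After removal of the trend with GC content and length, ADAM10 was at 0.69, MAML2 at 0.14 and NOTCH3 at 0.57. JAG1, HES1 and NOTCH2 stayed negative at -0.65, -0.33 and -0.53. GC content and length were removed together, so that the part of either alone was not tested.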

How the results depend on the processing

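Under alternatives, 703 values were compared with those reported. HEY1 and DLL1 are not among them, because neither reached the minimum of 1 FPKM in any comparison. Of these values, 643 kept their direction and their SDE call or lack of one, 10 became SDE, 10 no longer were, and 40 changed sign. The values include each fit that left out 1 library. They also include settings that leave the log2FC as it was and can move only its p, such as the replicate block and 1 fit of all 12 libraries. The genes SDE in BxPC-3-GR went from 0 to 1 with a pseudocount of 0.1 (MAML2) and to 2 without the filter as well (HEY1 and MAML2). In CFPAC-1-GR they went from 2 to 1 with the GC correction, alone or with the replicate block (MAML2), and to 1 with median-of-ratios scaling and the correction (JAG1). Upper-quartile scaling brought them to 3 there (JAG1 added). Between the parental lines they went from 4 to 5 with a pseudocount of 0.1 (MAML2 added). With the GC correction they stayed at 4 there, but NOTCH1 took the place of ADAM10. Between the resistant lines they went from 3 to 5 when the filter was dropped and the pseudocount set to 0.1 (DLL1 and HEY1 added). In the interaction they went from 1 to 0 under these 3 forms of the correction, and to 2 with upper-quartile scaling (HES1 added) or the smaller pseudocount without a filter (HEY1 added). The sign changed with the GC correction (the same with the block), and with median-of-ratios scaling and the correction, for NOTCH1 (0.31 and 0.17), NOTCH3 (0.39 and 0.25) and JAG2 (0.58 and 0.46) in CFPAC-1-GR, for NOTCH1 (0.68 and 0.40), NOTCH3 (0.57 and 0.33) and JAG2 (0.73 and 0.48) in the interaction, for NOTCH2 (-0.023 and -0.15) and HES1 (0.29 and 0.17) between the parental lines, and for JAG2 (-0.11 and -0.061) and HES1 (0.051 and 0.10) in BxPC-3-GR. MAML2 in the interaction reached -0.10 with the last of these. Upper-quartile scaling gave -0.077 for NOTCH2 between the parental lines and 0.003237 for HES1 in BxPC-3-GR, where median-of-ratios scaling gave 0.046. Leaving out 1 library gave -0.15 to 0.17 for JAG2 and -0.059 to 0.045 for HES1 in BxPC-3-GR, neither of which passed the test, and changed no count of SDE genes among the 10. The cause was not tested. The libraries share only a replicate number, and with the replicate block the counts of SDE genes among the 10 were 0, 2, 4, 3 and 1 in the 5 comparisons, as without it, although JAG1 in BxPC-3-GR no longer passed an adjusted p of 0.05 (0.059). Over all genes, SDE counts ranged from 778 to 2769 in BxPC-3-GR (909 as reported), 1079 to 8509 in CFPAC-1-GR (3880), 3151 to 11020 between the parental lines (5274), 1785 to 6565 between the resistant lines (2111) and 2295 to 9558 in the interaction (4643). Depth limits HEY1 and DLL1 most.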
